A study of Mus musculus with 8 samples.

Results

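A total of 1398 autosomal chromatin regions were open in control, Flt3-ITD and Smc3-deleted Flt3-ITD bone marrow progenitors but had no peak in cells heterozygous for a Smc3 deletion. They were chosen by the calls in the deposited peak lists. Peaks of all 8 ATAC-seq libraries were merged into 114533 regions wherever they overlapped by at least 1 bp. A region on chromosomes 1 to 19 was kept when each of the 6 libraries of the other genotypes had a peak in it and neither Smc3 del/+ library did. Of the 40105 autosomal regions called in all 6 of those libraries, the 1398 made up 3.49%. Another 28 regions on X or Y met the same calls and were left out by the rule. The loss in Smc3 del/+ is therefore how the regions were found and is no result of its own.

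Cohesin is a ring-shaped complex built around the proteins Smc1a, Smc3 and Rad21. It holds sister chromatids together and extrudes chromatin loops, often up to sites bound by CTCF, and it brings enhancers near promoters. In blood stem and progenitor cells, cohesin genes are recurrently mutated in myeloid malignancy, and Flt3-ITD, an internal tandem duplication that keeps the receptor tyrosine kinase Flt3 active, is a common lesion in acute myeloid leukemia. ATAC-seq inserts adapters with the Tn5 transposase where DNA is accessible, so a peak marks open chromatin such as a promoter or an enhancer.

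All cells were c-Kit+ bone marrow cells from mice that had received PIpC, an interferon inducer, 4 weeks earlier, with 50000 cells per library and 2 libraries per genotype. Control mice were Smc3 fl/+ and carried no Mx1-Cre, and all 3 mutant genotypes are titled Mxplus. Mx1-Cre is a recombinase under an interferon-responsive promoter that is active in blood cells and also outside them. The Smc3 del/+ group had lost 1 Smc3 allele, the Flt3-ITD group is labelled with the duplication alone, and the combined group is labelled Smc3 fl/del Flt3-ITD in one field and Smc3het in its title, so the state of its second Smc3 allele is not settled. In the free-text descriptions, the Smc3 del/+ samples carry the wording that belongs to Flt3-ITD and the reverse, whereas titles and genotype labels match. The grouping follows the latter. If the descriptions were right, the 1398 regions would be those lost only in Flt3-ITD, and the regions lost only in Smc3 del/+ would number 464. The labels do not state whether replicate libraries are from separate mice, so p-values measure only the spread between these libraries. The c-Kit+ identity was not checked against marker genes, because no annotation of the mm9 build was used here. For the same reason the regions are given by mm9 coordinates counted from 1, with no gene, exon, intron or sequence attached.

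The 8 lists held between 61953 and 80698 peaks covering 34.1 to 41.7 Mb. Read depth is unknown for all of them. Both Smc3 del/+ lists, with 61953 and 63401 peaks, were shorter than the other 6, which ran from 64218 to 80698. Each peak carried the authors' score, which lay between 0.99 and 1. The sources do not say what it measures. It served only to rank peaks within a list, as a percentile where 100 would be the top. Between 27.2% and 34.9% of a library's peaks tied at a score of exactly 1, so the highest percentile a peak could reach was 82.5 to 86.4, depending on the list.

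The same rule was run for each of the other genotypes as a background. In control, 238 of 36822 eligible regions were missing (0.646%), in Flt3-ITD 464 of 37379 (1.24%) and in Smc3-deleted Flt3-ITD 267 of 36183 (0.738%). The share for Smc3 del/+ was 3.49%, with an exact binomial 95% interval that covers counting error only of 3.31% to 3.67%. These sets share libraries and are described side by side without a test. With the same number of peaks taken from the top of every list (61953), the Smc3 del/+ count was 834 of 36197 (2.30%). The shares for control, Flt3-ITD and Smc3-deleted Flt3-ITD were then 0.849%, 0.737% and 1.58%. Making the lists equally long thus lowered the count for Smc3 del/+, and any further part of sequencing depth was not tested. Of the 1398 regions, 787 (56.3%) overlapped a region that still met the rule with equal peak numbers.

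The Smc3 del/+ libraries missed these regions individually as well as jointly. Replicate 1 lacked 3282 and replicate 2 lacked 3066 of the 40105 shared regions. Of those missing in replicate 1, 42.6% were also missing in replicate 2, and 45.6% in the other direction. In control the corresponding shares were 38.1% and 18.6% (624 and 1281 regions missing), in Flt3-ITD 38.3% and 31.4% (1211 and 1477), and in Smc3-deleted Flt3-ITD 42.9% and 39.7% (623 and 672). Each Smc3 del/+ library alone thus lacked over 2 times as many shared regions as any single library of another genotype. The overlap between its replicates was close in percent to that of Smc3-deleted Flt3-ITD. The latter libraries lacked far fewer regions, 623 and 672 of 36183 against 3282 and 3066 of 40105. A like percentage there therefore stands further above the overall share missing. Control (624 and 1281 of 36822) and Flt3-ITD (1211 and 1477 of 37379) also lacked fewer regions. Their lower percentages therefore do not show a weaker overlap between replicates.

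Most of the lost regions were of low rank in the libraries that called them. In control replicate 1 the median score percentile of the 1398 was 34.2, and in replicate 2 it was 28.9. In Flt3-ITD the medians were 34.6 and 32.5, and in Smc3-deleted Flt3-ITD 47.2 and 45.8. The 38707 shared regions that 1 or both Smc3 del/+ libraries kept had medians of 82.7 and 82.5 in the 2 Smc3-deleted Flt3-ITD lists, 84.0 and 66.5 in Flt3-ITD and 84.6 and 66.6 in control. The values 82.7, 82.5, 84.0 and 84.6 are the ceilings of those lists, where 50.4% to 62.8% of kept regions scored exactly 1. In replicate 2 of Flt3-ITD and of control that share was 47.6% and 47.4%, and the median fell below the ceiling. The lost regions stood lower than the kept ones in 6 of 6 libraries. Set against all 40105 eligible regions, their median was lower by 37.4 ± 6.62 percentile points (mean difference of -37.4, SD over 6 libraries). Regions missing only in another genotype were also mostly among the weaker ones, as given below.

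**Figure D1:**
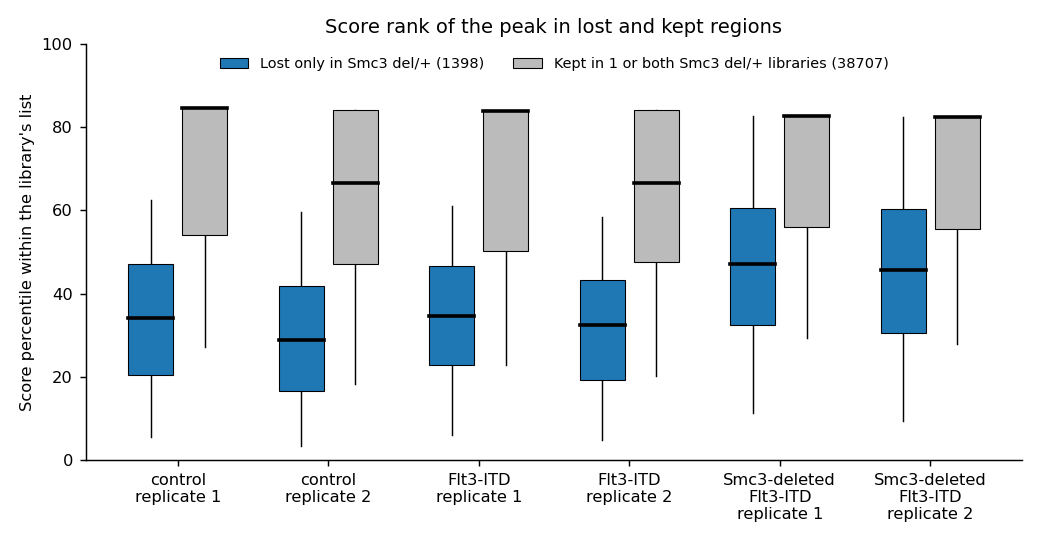
Score percentile within each library's list (vertical axis) of the best peak in the 1398 regions lost only in Smc3 del/+ (blue) and in the 38707 kept regions (grey), for the 6 libraries that call both. Boxes span the middle 50% of regions, thick lines are medians and thin lines run from the 5th to the 95th percentile of regions. The blue medians lie between 28.9 and 47.2, and the grey medians between 66.5 and 84.6, several of them at the ceiling of their list.

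Averaged over the 6 libraries, the percentile of a lost region had a median of 36.5, with 22.9 and 53.1 as the 10th and 90th percentiles, and 1194 of the 1398 (85.4%) lay below 50. No library gave a score of exactly 1 to 1085 of them (77.6%), against 27.2% of the kept regions. All 6 libraries gave that score to 17 lost regions, against 39.0% of the kept ones. A further 270 had it in 1 or both Smc3-deleted Flt3-ITD libraries and in no other, and 43 had it in at least 1 library of the other genotypes. Ranked from the top, the median lost region stood at 49017 and 46057 in the control lists, 43904 and 43319 in the Flt3-ITD lists and 42595 and 43566 in the Smc3-deleted Flt3-ITD lists. All of these are within the 61953 peaks of the shorter Smc3 del/+ list. In 789 regions (56.4%) the peak ranked within that length in every one of the 6 lists, against 91.5% of the kept regions.

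Presence of a peak was used to choose the regions, but its rank among the 6 calling libraries was not, so it could be compared between genotypes. Libraries with Flt3-ITD, alone or with the Smc3 deletion, had a median percentile of 40.0 ± 7.52 (SD, n = 4) in the lost regions, and control libraries 31.6 ± 3.77 (SD, n = 2). The difference of 8.47 points did not pass an exact two-sided permutation test (p = 0.2, 0.4 after Benjamini-Hochberg adjustment over 2 tests), and with 15 assignments the smallest p is 0.0667. By genotype the percentile was 46.5 ± 1.03 in Smc3-deleted Flt3-ITD, 33.6 ± 1.47 in Flt3-ITD and 31.6 ± 3.77 in control (SD, n = 2 each). The difference of 8.47 points was 5.48 without Smc3-deleted Flt3-ITD replicate 1 and 5.22 without replicate 2. A score of exactly 1 was given to 16.7% and 17.9% of the lost regions by the Smc3-deleted Flt3-ITD libraries and to 1.72% to 2.36% by the other 4, and to 62.8% and 62.5% against 47.4% to 53.3% of the kept ones. The Smc3-deleted Flt3-ITD lists were also the longest, with 80698 and 80316 peaks against 64218 to 74525 in the other 4. Counted from the top instead, the median lost region in these lists stood at 42595 and 43566, close to 43904 and 43319 in Flt3-ITD. In control it stood at 49017 and 46057. The part of list length in the percentiles was not tested. All libraries with Flt3-ITD are titled Mxplus and control carried no Mx1-Cre, so Flt3-ITD and Cre cannot be told apart in this contrast.

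Peak widths were compared in the same way. The median width of the best peak in a lost region was 401 ± 1.41 bp in Smc3-deleted Flt3-ITD, 413.5 ± 2.12 bp in control and 427.5 ± 0.707 bp in Flt3-ITD (SD, n = 2 each). The 3 genotypes did not overlap, with control between the other 2. Libraries with Flt3-ITD, which pool the widest and the narrowest genotype, and control differed by 0.750 bp (exact two-sided permutation p = 0.933, n = 4 and 2), a direction that turned in some alternatives. The order of the genotypes was that of their whole lists, whose median widths were 406 and 407 bp, 409 and 408 bp, and 422 and 424 bp. In each library between 95.4% and 97.4% of lost regions held a single peak, and between 92.6% and 92.9% of kept regions did.

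Loss was concentrated among the weaker shared regions, and it was there that Smc3 del/+ differed most from the background. The 40105 eligible regions were put into 10 equal strength groups by their mean percentile in the 6 calling libraries, group 1 being the weakest. In group 1, 700 of 4011 were lost in Smc3 del/+ (17.5%, exact 95% interval 16.3% to 18.7%). In groups 2 to 4 the shares were 9.05%, 5.21% and 2.07%. Group 1 of the other genotypes, formed in the same way, lost 4.53% (control), 8.72% (Flt3-ITD) and 3.43% (Smc3-deleted Flt3-ITD). Groups 1 to 4 held 225 of the 238 regions missing only in control, 431 of 464 in Flt3-ITD and 215 of 267 in Smc3-deleted Flt3-ITD. For Smc3 del/+ they held 1355 of 1398, so low rank was common to all 4 sets. In group 4 these shares were 0.136%, 0.294% and 0.608%, all with intervals below that of Smc3 del/+ (1.65% to 2.56%).

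Stronger regions were seldom lost. Strength groups 5 to 10 together held 43 lost regions among 24063, or 0.179% (0.129% to 0.241%). The same groups gave 0.240% in Smc3-deleted Flt3-ITD, 0.147% in Flt3-ITD and 0.0588% in control, so Smc3 del/+ was not the highest there. When only the upper 50% of the other 6 lists was set against the whole Smc3 del/+ lists, 31 of 22211 regions were lost. Taking the upper 50% of every list gave 849 of 22154 (3.83%), while the shares for control, Flt3-ITD and Smc3-deleted Flt3-ITD were 0.668%, 1.04% and 0.749%. Only 30 of the 1398 overlapped one of those 849, so that setting finds mostly other regions, ones with a lower-ranked or no peak in Smc3 del/+.

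**Figure D2:**
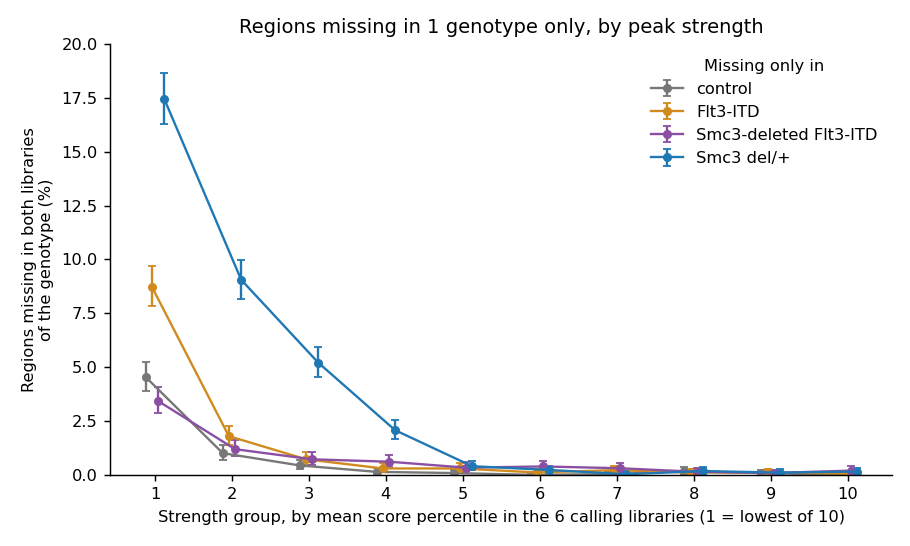
Share of regions called in 6 libraries and missing in both libraries of the remaining genotype (vertical axis, %), by strength group, from the mean score percentile in the 6 calling libraries (horizontal axis, 1 = lowest of 10). Points are shares and bars exact 95% binomial intervals; the Smc3 del/+ line falls from 17.5% to 2.07% over groups 1 to 4 and joins the other genotypes from group 5.

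Regions at the edges of the rule ranked above the lost ones on one side and below them on the other. Just outside it, 1668 regions were called in all 6 libraries and in Smc3 del/+ replicate 1 only, with a median percentile of 43.3, and 1884 in replicate 2 only, with 42.5. The 35155 autosomal regions called in all 8 libraries had 76.9. On the other side, 2091 regions lacked a peak in both Smc3 del/+ libraries and in 1 of the other 6, with a median of 29.4 over the libraries that called them, beside 36.5 for the lost regions. The missing call among those 2091 was in control replicate 2 for 746, in Flt3-ITD replicate 2 for 446, in Flt3-ITD replicate 1 for 325, in control replicate 1 for 288, and in Smc3-deleted Flt3-ITD replicates 2 and 1 for 155 and 131. The lost set therefore grew most, to 2142, when control replicate 2 was left out of the other libraries.

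The 3 highest-ranked regions kept by a single Smc3 del/+ library had a score of exactly 1 in all 6 other libraries. At chr5:124894292-124896243 Smc3 del/+ replicate 1 covered 271 bp. At chr2:32463419-32465100 and chr14:15181718-15183265 replicate 2 covered 1175 and 1539 bp. The 3 highest-ranked regions that missed the rule through another library were chr9:16020439-16021584, chr5:134788958-134790219 and chr11:23977670-23978114. Each lacked a peak in both Smc3 del/+ libraries and in Smc3-deleted Flt3-ITD replicate 2. Their means were taken over the calling libraries, and that replicate had the lowest percentile ceiling of the calling lists (82.5). Leaving it out gives the highest mean that can be reached (83.9), so the ranking itself favours regions missing there.

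Lost regions lay somewhat farther from the next Smc3 del/+ peak than kept regions did, a difference given by intervals and not tested. They also lay farther from the nearest other region called in all 8 libraries, at a median of 7959.5 bp against 6365 bp for kept regions. The nearest Smc3 del/+ peak was a median of 4456 bp away (10th and 90th percentiles 532 and 26404 bp). It was within 1 kb for 246 of 1398 regions (17.6%, 15.6% to 19.7%), and both Smc3 del/+ libraries had such a peak for 141. It was within 5 kb for 753 (53.9%, 51.2% to 56.5%) and farther than 50 kb for 64 (4.58%). From the edge of a kept region the next Smc3 del/+ peak outside it was within 1 kb in 23.2% (22.8% to 23.7%), within 5 kb in 62.3% (61.8% to 62.7%) and farther than 50 kb in 2.96%, at a median of 3092 bp. Within strength groups 1 to 4, where 1355 of the lost regions fell, the shares within 1 kb were 16.0% (14.1% to 18.1%) for lost and 21.6% (21.0% to 22.3%) for kept regions.

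Higher shares within 1 kb were seen for 2 of the other genotypes, again without a test. Of the regions missing only in control 26.9% (21.4% to 33.0%) had a control peak within 1 kb, and of those missing only in Smc3-deleted Flt3-ITD 31.1% (25.6% to 37.0%) had a peak of that genotype within 1 kb. For Flt3-ITD the share was 18.5% (15.1% to 22.4%), which overlaps that of Smc3 del/+. Beyond 50 kb of any peak of the missing genotype lay 22.1% of the regions missing only in Smc3-deleted Flt3-ITD, 10.9% in control and 6.68% in Flt3-ITD, and the 4.58% in Smc3 del/+ was the lowest of the 4. The kept regions gave 1.73%, 2.82%, 2.81% and 2.96% in the same order.

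**Figure D3:**
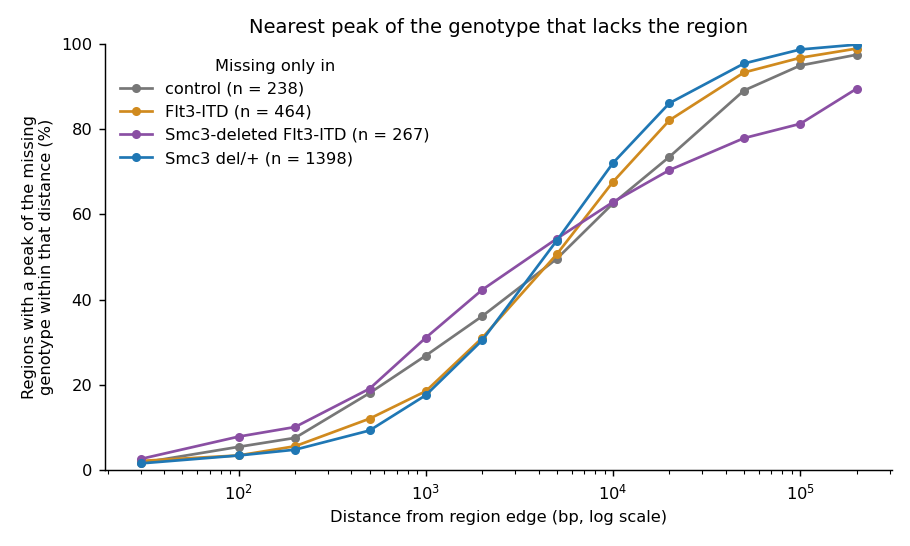
Share of regions missing in 1 genotype only (vertical axis, %) that have a peak of that same genotype within the distance on the horizontal axis (bp from the region edge, log scale), with 1 line per genotype. For Smc3 del/+ the line passes 17.6% at 1 kb and 53.9% at 5 kb, below control and Smc3-deleted Flt3-ITD at 1 kb.

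The strongest lost regions were nearly all of this adjacent kind. Of the 17 with a score of exactly 1 in all 6 libraries, 16 had a Smc3 del/+ peak within 1 kb, at a median of 63 bp over the 17. Of the other 1381, 230 had one (16.7%). Among all kept regions the share was 23.2%, and it was not worked out for kept regions with that score in all 6 libraries. Whether such nearness is particular to the 17 is therefore not known. The 17 were narrow, with a median merged width of 467 bp against 1090 bp for the other 1381. When the lost regions were cut into 5 equal groups by rank, the share within 1 kb was 17.9%, 16.1%, 15.4% and 13.6% in the lower 4 and 25.1% in the highest, whose interval of 20.1% to 30.6% overlapped that of the lowest (13.6% to 22.9%).

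The widest of these 17 was chr19:47582904-47584112. Control libraries covered 365 and 830 bp of it, Flt3-ITD libraries 887 and 847 bp, and Smc3-deleted Flt3-ITD libraries 1176 and 897 bp. All 6 were well covered, with control replicate 1 the narrowest. The nearest peak of Smc3 del/+ replicate 1 ended 725 bp before the region, and that of replicate 2 began 698 bp after it. On each side the peaks of the 2 replicates overlapped one another.

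The region at chr5:111236697-111237757 was the only one of the 17 with no Smc3 del/+ peak within 1 kb. Control libraries covered 431 and 462 bp of it, Flt3-ITD libraries 853 and 873 bp, and Smc3-deleted Flt3-ITD libraries 424 and 477 bp. Both Flt3-ITD libraries were wider there than the other 4, and how many other regions show this was not counted. The nearest Smc3 del/+ peaks, at 1063 and 1103 bp, sat in a neighbouring region that all other libraries also called.

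At chr7:3645937-3646904 the Smc3 del/+ peaks of both libraries lay 8 bp outside the region. Coverage by the other lists was uneven there, with 280 and 548 bp in the 2 Smc3-deleted Flt3-ITD lists, 348 and 906 bp in Flt3-ITD and 954 and 330 bp in control. At chr2:127953356-127953914 coverage was even, at 540 and 525 bp, 483 and 550 bp, and 494 and 481 bp in the same order, and all 6 shared 464 bp. The Smc3 del/+ peaks lay 44 and 47 bp away. A region at chr4:61948229-61948787 was as even, between 464 and 531 bp in the 6 libraries, with Smc3 del/+ peaks 279 and 287 bp away.

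The other 5 of the 10, which tie with these in percentile, had Smc3 del/+ peaks between 0 and 78 bp away. They were chr7:114851091-114852011 (78 bp to the nearest), chr9:121613619-121614313 (26 bp), chr18:35757895-35758350 (0 bp, the peak starting where the region ended), chr13:110723583-110724375 (12 bp) and chr18:39960140-39960606 (52 bp). At these 5 the 6 other libraries covered between 340 and 879 bp each. When peaks were also merged across gaps of up to 500 bp, 2 of these 10 highest-ranked regions still met the rule, whereas 1223 of the 1398 (87.5%) did.

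Regions of high rank with no Smc3 del/+ peak within 1 kb were also read, a list made after the values were seen. After the one on chromosome 5, the highest were chr13:110022055-110023121 (mean percentile 72.9), chr14:22019428-22020803 (72.6), chr17:28819137-28820371 (70.1), chr19:48512402-48513859 (68.0) and chr1:40351518-40352623 (67.7). At chr14:22019428-22020803 control libraries covered 387 and 411 bp, Flt3-ITD libraries 1376 and 361 bp and Smc3-deleted Flt3-ITD libraries 405 and 340 bp, and the nearest Smc3 del/+ peak was 5109 bp away. Flt3-ITD replicate 1 alone was wide there. In score, control and Smc3-deleted Flt3-ITD stood at their ceilings (84.6, 84.2, 82.7 and 82.5) and Flt3-ITD at 50.8 and 50.6. At chr1:40351518-40352623 the nearest Smc3 del/+ peak was 22692 bp away, and coverage ran from 302 bp in Smc3-deleted Flt3-ITD replicate 2 to 1066 bp in control replicate 1.

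**Figure D4:**
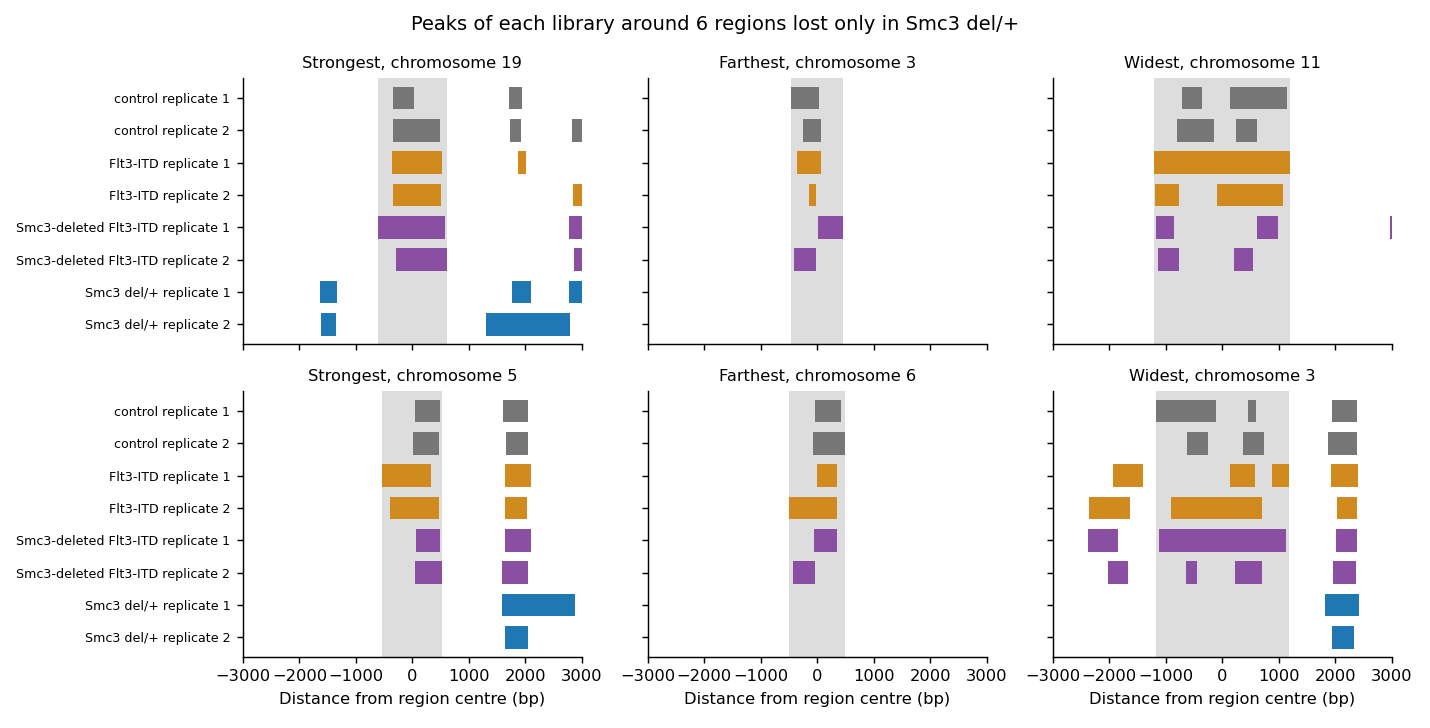
Peaks of each library (bars, 1 row per library) within 3000 bp of the centre of 6 lost regions, 2 each of the highest ranked, the farthest from Smc3 del/+ peaks and the widest by bases covered (without the region on chromosome 18); the grey band is the merged region and the horizontal axis the distance from its centre in bp. Smc3 del/+ (blue) has no bar in any grey band, but has bars beside it at the highest-ranked regions and at the wide region on chromosome 3.

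The widest lost regions were of middling or low rank. The most bases, a mean of 1345 bp, were covered at chr18:65535028-65536775, with 1122 and 1748 bp in the 2 Smc3-deleted Flt3-ITD lists, 1175 and 1307 bp in Flt3-ITD and 1270 and 1447 bp in control. All 6 lists shared 1014 bp of it. Its percentile nonetheless ranged from 10.6 in Flt3-ITD replicate 2 to 61.8 in Smc3-deleted Flt3-ITD replicate 1, and the nearest Smc3 del/+ peak was 4513 bp away.

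At chr11:79482564-79484975 control libraries covered 1356 and 1031 bp, Flt3-ITD libraries 2412 and 1602 bp and Smc3-deleted Flt3-ITD libraries 710 and 732 bp. The genotypes did not overlap in these values, but how many other regions separate in this way was not counted. No base was shared by all 6, so the covered bases need not belong to the same site. At chr7:134959078-134960468 coverage was even, from 1090 to 1251 bp, with 922 bp shared by all 6. Its percentile was 42.1 and 1.8 in control replicates 1 and 2, 23.7 and 3.6 in Flt3-ITD, and 55.9 and 52.2 in Smc3-deleted Flt3-ITD. Replicates of the first 2 genotypes thus stood far apart in score at an evenly covered region. The other 2 wide regions were chr3:126325203-126327551, with 669 to 2246 bp, and chr5:104142185-104144867, with 329 to 2435 bp. The first had a Smc3 del/+ peak 649 bp away.

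The most isolated loss was at chr3:47288915-47289836, where the nearest Smc3 del/+ peak was 594.4 kb away. The region was weak in every library, with percentiles of 36.4 and 35.9 in the 2 Smc3-deleted Flt3-ITD lists, 30.3 and 13.9 in Flt3-ITD and 22.9 and 17.5 in control, and 128 to 499 bp covered. Next came chr6:20711135-20712126, 452.1 kb from such a peak, with 367 to 844 bp covered and percentiles from 13.8 to 53.7. The other 3 most isolated were chr17:67432903-67434228 (189.3 kb), chr1:38485143-38486600 (177.8 kb) and chr2:58830361-58831287 (167.6 kb). At the last, both Smc3-deleted Flt3-ITD libraries had a score of exactly 1 and the other 4 stood at 37.7 to 47.6. Only the region on chromosome 1 had bases shared by all 6 lists (281 bp).

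The weakest lost region, chr4:147186362-147188377, had a mean percentile of 5.39, from 0.6 in Smc3-deleted Flt3-ITD replicate 1 to 12.8 in replicate 2. Its 6 libraries covered between 188 and 824 bp with no base in common. The next 2 were chr15:55695553-55696974 (mean 10.9), whose edge lay 1 bp from a peak of Smc3 del/+ replicate 1, and chr4:130167624-130168206 (mean 12.0). None of these 3 met the rule with equal peak numbers.

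Merged regions were not always 1 site. In 659 lost regions (47.1%) no base was covered by all 6 libraries, so their peaks were linked through one another; in the other 739 the bases common to all 6 had a median length of 228 bp. Among all kept regions 38.0% lacked a common base, but within strength groups 1 to 4 the shares were 47.9% for lost and 49.4% for kept regions. Median merged widths in those groups were 1092 bp for lost and 1203 bp for kept regions, and the mean bases covered per library had medians of 518 and 527 bp.

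Lost regions were spread over every autosome. Their share of eligible regions ran from 2.59% on chromosome 8 (55 of 2123, exact 95% interval 1.96% to 3.36%) to 4.74% on chromosome 19 (63 of 1328, 3.66% to 6.03%). Chromosome 17 had 4.68% (87 of 1859, 3.77% to 5.74%) and chromosome 13 had 4.47% (86 of 1923, 3.59% to 5.49%). These 3 intervals and that of chromosome 8 were the only ones of the 19 that did not include 3.49%. On chromosomes 19, 17 and 13 the shares missing only in Flt3-ITD were 1.57%, 1.29% and 1.31%, beside 1.24% over all autosomes. The shares missing only in control were 0.513%, 0.834% and 0.753%, beside 0.646%, and those missing only in Smc3-deleted Flt3-ITD 0.521%, 0.489% and 0.650%, beside 0.738%.

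**Figure D5:**
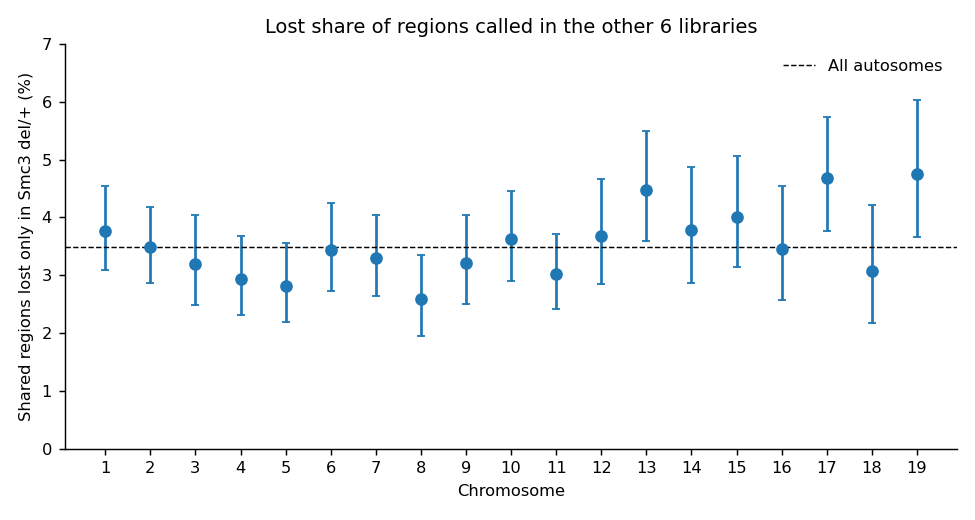
Share of regions called in the other 6 libraries that were lost only in Smc3 del/+ (vertical axis, %), for each autosome (horizontal axis); points are shares, bars exact 95% binomial intervals and the dashed line the share over all autosomes, 3.49%. Chromosomes 13, 17 and 19 lie above the line with their intervals, and chromosome 8 below it.

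Neighbouring regions were rarely lost together. For 63 of 1398 lost regions (4.51%, 3.48% to 5.73%) the next eligible region along the chromosome was lost too, beside the 3.49% over all eligible regions. The same share was 0.840% for regions missing only in control, 2.80% for Flt3-ITD and 6.37% for Smc3-deleted Flt3-ITD, whose overall shares were 0.646%, 1.24% and 0.738%. Another lost region lay within 100 kb of 415 (29.7%, 27.3% to 32.2%), and a lost region lay within 100 kb of 23.8% of the kept regions (23.4% to 24.2%), a difference that was not tested. Joining lost regions at most 50 kb apart left 1146 alone, 99 pairs, 15 runs of 3, 1 run of 4 and 1 of 5.

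The run of 5 spanned chr2:72076409-72190200, 114 kb with 13 eligible regions. Smc3 del/+ libraries had 9 and 8 peaks in that span, control libraries 18 and 18, Flt3-ITD libraries 19 and 18 and Smc3-deleted Flt3-ITD libraries 19 and 19. The choice of the 5 regions itself removes Smc3 del/+ peaks from the span, so the peak counts of this and the next runs are a description. The mean percentiles of its 5 regions ran from 23.5 at chr2:72188923-72190200 to 41.0 at chr2:72085580-72086011, and no Smc3 del/+ peak lay within 1 kb of any of the 5.

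The run of 4 spanned chr17:7278765-7379948, 101 kb with 9 eligible regions. Smc3 del/+ libraries had 8 and 7 peaks in it and the other 6 between 12 and 15. Its region of highest rank, chr17:7278765-7279556, had a mean percentile of 59.4 and a Smc3 del/+ peak 183 bp away. The shortest run of 3, chr15:34265699-34288315, held 4 eligible regions within 22.6 kb. Its 3 lost regions lack a Smc3 del/+ peak by choice, and each Smc3 del/+ library had 1 peak in the span.

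Among the 340 windows of 5 Mb with at least 50 eligible regions, the median share lost was 3.32% and 25 windows had none. The highest shares, picked after they were seen, were 12.0% on chromosome 13 from 45 to 50 Mb (11 of 92), 11.1% on chromosome 15 from 30 to 35 Mb (6 of 54) and 11.1% on chromosome 1 from 40 to 45 Mb (7 of 63). Chromosome 17 from 5 to 10 Mb, which holds the run of 4, had 14 of 136 (10.3%).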

How the data were processed

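Libraries were ATAC-seq of c-Kit+ mouse bone marrow cells, 2 for each of 4 genotypes. The authors deposited 1 peak list per library with 6 columns and no header. The score per peak is the authors' own deposited value, and peak starts and ends are deposited mm9 positions. Alignment used Bowtie to mm9, per the submitters' processing notes. Not given in the sources used here are its version, the peak caller, duplicate handling and the Tn5 offset. No pooled calls were made and read depth is unknown. The gene and promoter tables at hand are for GRCm38, so genes, motifs and sequences were not analysed here.

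The 557040 peaks were merged at an overlap of 1 bp, the rule was applied to the 19 autosomes, and per region and library the highest-scored peak was ranked within its list. Named regions were the 10 of highest mean percentile (ties by width), the 5 widest, the 5 farthest from a Smc3 del/+ peak, the 3 weakest, the 3 longest runs (ties by the shorter span) and 3 on each edge of the rule. Members and lists were chosen with earlier results of these data known. Merging and calling were tested on simulated lists of well-separated sites, where all peaks at a site overlapped. Regions linked only through a chain of peaks were not simulated. Intervals are Clopper-Pearson at 95%. Adjustment used statsmodels 0.14.6, permutation and intervals scipy 1.17.1 under Python 3.11.15, and tables pandas 2.3.3.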

Additional observations from a re-analysis of the deposited data

How the results depend on the processing

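The count of 1398 lost regions stayed within 1.5 times under merging across gaps of 500 bp and a minimum of 200 bp covered. Testing only bases common to the 6 other libraries gave 1319, but of 24753 regions (5.33%). Only 739 of the 1398 have such bases, so the rest of the 1319 were regions kept under the main rule. The count also stayed within 1.5 times without regions that had a Smc3 del/+ peak within 1 kb (1152). So it did without both Smc3-deleted Flt3-ITD libraries (1839). These last 2 settings were chosen after seeing the data. It was 834 with equal peak numbers, 849 with the upper 50% of each list, 31 with the upper 50% of the other 6 lists only, 464 with the Flt3-ITD and Smc3 del/+ labels exchanged, and 645 without regions that had a Smc3 del/+ peak within 5 kb (added after seeing the data). Leaving out 1 library loosens the rule, and gave 1525 to 3309 regions, with 2142 without control replicate 2, 3111 without Smc3 del/+ replicate 1 and 3309 without Smc3 del/+ replicate 2. The share with a Smc3 del/+ peak within 1 kb was 7.44% when peaks merged across 500 bp, since such gaps then close. The share with another lost region within 100 kb was 23.1% with equal peak numbers and 31.5% to 51.1% over the omissions of a library, where more regions met the rule. The width difference between libraries with Flt3-ITD and control turned to -1.63 bp with equal peak numbers and ran from -2.83 to 8.67 bp over the omissions of a library. The percentile difference ran from 5.22 to 12.5 over the omissions of a library. With a replicate block, differences within replicate number were the same, 8.47 percentile points (exact permutation p = 0.222) and 0.750 bp (p = 0.889), with a smallest p of 0.111. Same-numbered libraries did not deviate together over the lost regions (correlations of -0.0188, 0.0218 and 0.0198 for the 3 pairs of calling genotypes; Smc3 del/+ has no peak there), and the labels do not say whether a number marks a shared day or animal. Of 35 named regions, 21 met the rule with equal peak numbers and 23 with merging across 500 bp. Without read depth, a weak peak cannot be told from a missed one.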
